A study of Mus musculus with 24 samples.

Results

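Messenger RNA of stimulated thymocytes that lack both Elk-1 and Sap-1 (ElkSapKO) was compared with that of stimulated thymocytes that lack Sap-1 alone (SapKO). The 6 arrays, 3 of each genotype, were taken by genotype and treatment label from the 24 Affymetrix Mouse430_2 arrays of the series, and each came from a different mouse. All mice were male, 8 weeks old and labelled Black 6J. The cells were double-positive (DP) thymocytes, sorted for CD4 and CD8, rested, and then kept for 30 min on anti-CD3, a plate-bound antibody against the signalling chains of the T cell receptor. Both groups carry the Sap-1 knockout, so the comparison measures what the loss of Elk-1 adds where Sap-1 is already missing. For setting beside it, the same 6 mice gave untreated arrays from uncoated plates, and 6 other mice gave stimulated ElkKO and wild-type (WT) arrays, in which Sap-1 is present. The construction of the alleles is not described in the labels. The series tests how these factors act in T cell receptor signalling of DP cells.

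DP thymocytes test their new T cell receptor on self peptides, and a signal of moderate strength lets a cell survive and mature, which is called positive selection. The receptor activates the kinase ERK, which phosphorylates the ternary complex factors Elk-1 (gene Elk1), Sap-1 (gene Elk4) and Net (gene Elk3). These ETS-family proteins sit beside serum response factor (Srf) on promoters of immediate early genes, such as the Egr and Fos genes, and raise their transcription within minutes. Srf also works with a second class of partner, the myocardin-related factors, on genes of the actin cytoskeleton.

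The knockouts were checked first. The brightest Elk4 probe set read 7.44, 7.51 and 7.82 log2 in stimulated ElkSapKO mice 1, 2 and 3, and 7.47, 7.44 and 7.59 in SapKO, against 10.25, 10.67 and 10.82 in WT. Elk4 was thus low in both groups and did not separate them (log2 difference 0.09, adjusted p = 0.927 by limma, adjusted with the Benjamini-Hochberg method over 18193 genes). Elk1 was close to background. Its brightest probe set read 4.66, 4.43 and 4.25 in ElkSapKO and 4.77, 4.95 and 4.76 in SapKO (log2 −0.38 ± 0.172, adjusted p = 0.264; errors after ± are standard errors from limma unless SD is stated). The next Elk1 probe set read 3.49, 3.82 and 4.08 in ElkSapKO and 4.36, 4.35 and 4.75 in SapKO (log2 −0.69), and the last differed by 0.03. The ElkSapKO arrays lay below the SapKO arrays in both of the brighter Elk1 probe sets, at signals too dim for a firm check of the Elk label. Elk3, which encodes Net, differed by −0.31 (adjusted p = 0.698).

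Array quality differed between the groups before any gene is considered. The gap between the 3′ and 5′ Actb probe sets, wider in degraded RNA, was 0.648, 1.05 and 0.545 log2 in ElkSapKO mice 1, 2 and 3 and 0.182, 0.190 and 0.203 in SapKO, with no overlap. The dap spike-in, a bacterial control RNA, was at 9.90, 9.34 and 9.14 log2 in ElkSapKO and at 6.18, 9.08 and 6.45 in SapKO, so SapKO mouse 2 was the only SapKO array at the ElkSapKO level. Untreated ElkSapKO mouse 2 was the array farthest from the others: the interquartile range of its genes around their medians over arrays was 0.783, and in the remaining arrays it was 0.182 to 0.383. The labels give no batch, and the part of these differences in the results was not tested beyond the values given with them. Xist, which male cells do not express, had a group mean of at most 4.85 log2, and this value serves here as the level of background. Where the lower group lies below it, a fold is given as "at least". As the arrays are of bulk cells, fewer cells of a type and less RNA per cell cannot be told apart.

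In stimulated cells, 473 of 18193 genes (2.60%) differed between ElkSapKO and SapKO at an adjusted p below 0.05 in limma, and most of them were lower in ElkSapKO. There were 396 lower genes (2.18%) and 77 higher genes (0.423%). The lower genes had a median log2 difference of −0.78 and reached −2.33, and 89 of them were at least 2-fold lower. The higher genes had a median of 0.65 and reached 2.18, with 9 at least 2-fold higher, and 13 of the 77 had a mean signal below the Xist level. The median over all genes was 0.03, and it was −0.04 over the 10676 genes above the Xist level; the authors' scaling holds such medians near 0, so they say nothing of an overall shift. By ElkSapKO array, the median of the 396 genes chosen as lower was −0.98, −0.841 and −0.535 log2 against the SapKO mean in mice 1, 2 and 3, which describes the choice and tests nothing. In 25.2% of all genes the 3 ElkSapKO arrays did not overlap the 3 SapKO arrays, 12.5% with ElkSapKO lower.

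**Figure D1:**
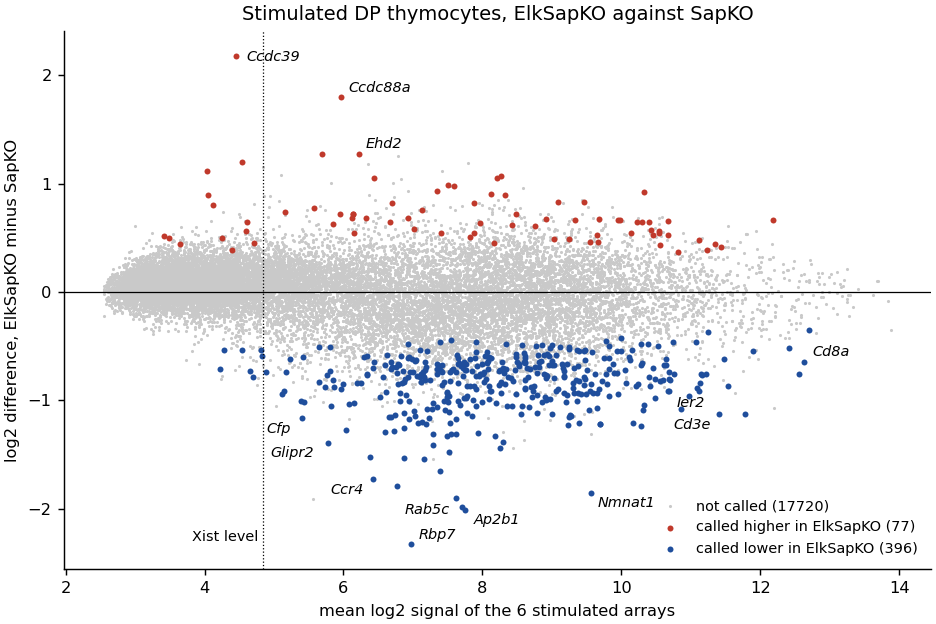
Log2 difference of stimulated ElkSapKO minus SapKO (vertical) against the mean log2 signal of the 6 arrays (horizontal) for 18193 genes. Blue points are the 396 genes called lower in ElkSapKO, red points the 77 called higher and grey points the rest; the dotted line marks the Xist level. Most called genes lie below 0, and several of the highest red points are near or left of the dotted line.

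Rbp7, which encodes a cytosolic retinol-binding protein, had the largest difference. It read 5.86, 6.04 and 5.53 log2 in ElkSapKO and 8.36, 7.72 and 8.33 in SapKO, which is 5.02-fold lower (log2 −2.33 ± 0.244, adjusted p = 3.49e-05). Nmnat1, the enzyme that makes NAD in the nucleus, had the smallest p. It read 8.66, 8.58 and 8.64 in ElkSapKO and 10.71, 10.33 and 10.42 in SapKO (3.61-fold lower, log2 −1.85 ± 0.161, adjusted p = 2.41e-06). Its second probe set differed by −1.56. In both genes the groups are far apart and the ElkSapKO mice lie close together. Rbp7 and Nmnat1 are next to each other on chromosome 4 in the mouse gene order, and Ube4b, a ubiquitin ligase gene on the other side of Rbp7, was lower too, at 8.00, 8.28 and 8.52 in ElkSapKO and 9.34, 9.06 and 9.15 in SapKO (log2 −0.92 ± 0.18, adjusted p = 0.0145). A second Ube4b probe set, nearly as bright, differed by −0.29, and its groups overlapped. Lzic, on the other side of Nmnat1, differed by −0.33 and did not pass. By the probe sets used, Ube4b, Rbp7 and Nmnat1 are the only run of 3 among the 15 runs of neighbouring called genes, the other 14 being pairs. They were looked at because Rbp7 had the largest difference, so the run describes the choice. Ube4b and Lzic were chosen after their values were seen.

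Rbp7 and Nmnat1 were lower still in the mice with Sap-1. Stimulated ElkKO arrays read 5.08, 4.60 and 4.71 for Rbp7 and stimulated WT arrays 5.17, 4.75 and 4.07, so the gene was near the Xist level in both groups with Sap-1. Nmnat1 read 6.18, 5.84 and 6.28 in ElkKO and 6.60, 6.76 and 6.30 in WT. For both genes the order of the levels was SapKO highest, ElkSapKO between, and WT and ElkKO lowest. The WT and ElkKO arrays overlapped for Rbp7, and for Nmnat1 the ElkKO arrays lay just below the WT arrays (log2 −0.45, adjusted p = 0.263).

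The other genes with the largest falls encode membrane traffic, metabolic and regulatory proteins. Ap2b1, the beta subunit of the AP-2 clathrin adaptor, read 6.78, 6.18 and 7.27 in ElkSapKO and 8.90, 8.68 and 8.67 in SapKO (4.02-fold lower, log2 −2.01 ± 0.342, adjusted p = 0.00621). Another Ap2b1 probe set differed by −0.92, and a dim one by 0.10. Rab5c, a small GTPase of early endosomes, read 6.66, 6.33 and 7.16 in ElkSapKO and 9.07, 8.68 and 8.33 in SapKO (3.94-fold lower). Bcat2, the mitochondrial aminotransferase of branched-chain amino acids, was at 6.60, 6.74 and 6.68 in ElkSapKO against 8.77, 8.26 and 8.70 in SapKO (3.74-fold lower). Max, the obligate partner of Myc, had 5.92, 5.45 and 6.27 in ElkSapKO and 7.79, 7.66 and 7.57 in SapKO (3.46-fold lower). In each of these the highest ElkSapKO array stayed more than 1 log2 unit below the lowest SapKO array.

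Ccr4, a chemokine receptor that thymocytes gain after positive selection, read 5.85, 4.92 and 5.93 in ElkSapKO and 7.59, 7.01 and 7.28 in SapKO (3.31-fold lower, log2 −1.73 ± 0.285, adjusted p = 0.00464). Rara, the retinoic acid receptor alpha, read 6.18, 5.95 and 6.19 in ElkSapKO and 7.76, 7.40 and 7.75 in SapKO (2.88-fold lower, adjusted p = 0.000848). Glipr2 read 5.06, 4.93 and 5.26 in ElkSapKO and 6.52, 6.59 and 6.30 in SapKO (2.62-fold lower, adjusted p = 3.97e-05), while its other probe set differed by −0.56. The remaining members of the 15 largest falls were Raver1, Gpr132, Tatdn2, Rnf25, Mad1l1 and Lmbr1l, with log2 differences of −1.65 to −1.41. Among them Gpr132 encodes a G protein-coupled receptor of lymphocytes and myeloid cells, Mad1l1 a protein of the mitotic spindle checkpoint, and Rnf25 a ubiquitin ligase.

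**Figure D2:**
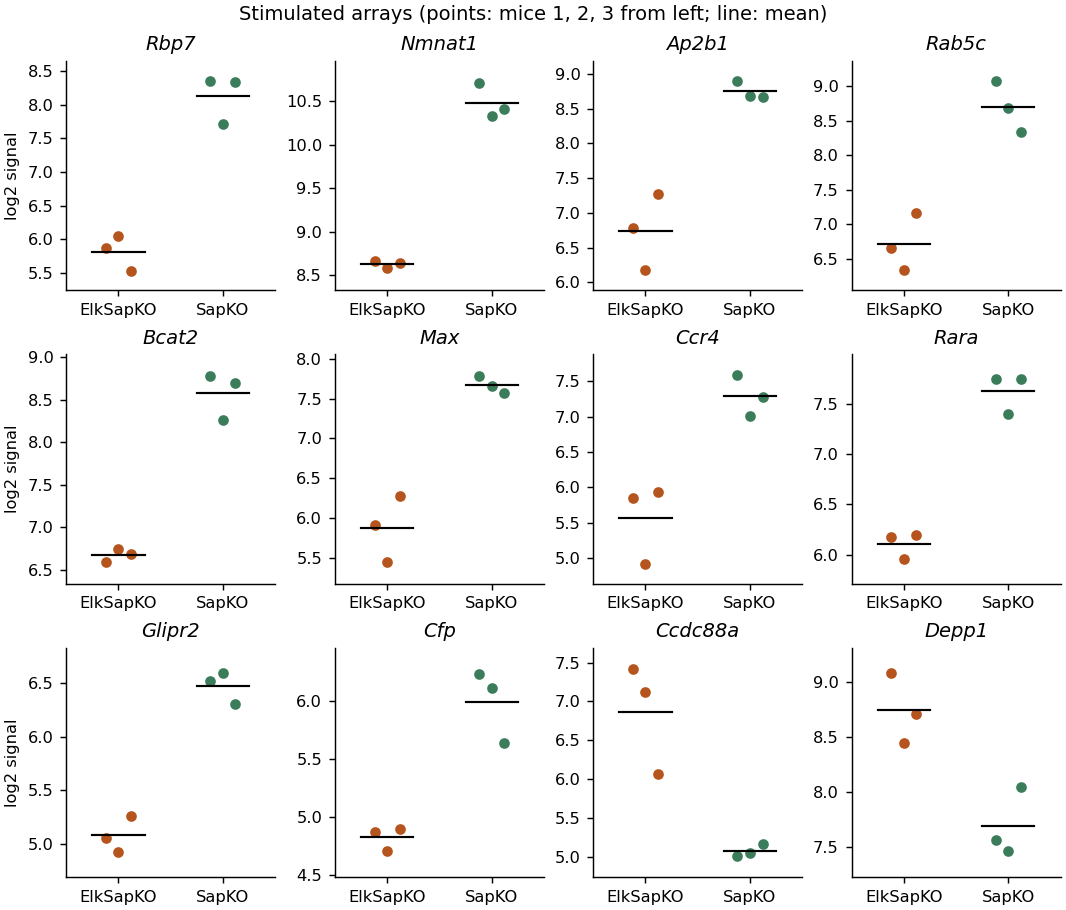
Log2 signal of 12 genes in the stimulated arrays of ElkSapKO (left, orange) and SapKO (right, green); points are mice 1, 2 and 3 from left to right and lines are group means. In the 10 genes from Rbp7 to Cfp every ElkSapKO point lies below every SapKO point, and in Ccdc88a and Depp1 every ElkSapKO point lies above. The vertical axes differ between genes and do not start at 0.

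The gene beside Elk1 on the X chromosome was among the called genes. Cfp, which encodes properdin of the complement system, read 4.87, 4.71 and 4.89 in ElkSapKO and 6.23, 6.11 and 5.64 in SapKO, so it was at least 2.21-fold lower (log2 −1.17 ± 0.169, adjusted p = 0.00196). It was as low in stimulated ElkKO, at 4.64, 4.89 and 4.64 against 5.77, 6.08 and 5.46 in WT (log2 −1.05, adjusted p = 0.00911). All 6 stimulated arrays without Elk-1 thus read at most 4.89 for Cfp, and all 6 with Elk-1 read at least 5.46. Its other probe set, below the Xist level, differed by −0.25 between ElkSapKO and SapKO. Uxt, on the other side of Elk1, did not differ (log2 0.01, adjusted p = 0.993). Of the 15 genes from 7 places before to 7 places after Elk1, 3 were called, where 2.60% of all genes were: Cfp, the ubiquitin protease gene Usp11 (log2 −0.80, adjusted p = 0.0367) and the complex I subunit gene Ndufb11 (log2 0.42, adjusted p = 0.0314). Other Ndufb11 probe sets, about as bright, differed by 0.31 and −0.27. Around Elk4 none of 15 was called. These neighbours were chosen after their values were seen. By chromosome, the share of called genes ran from 0.855% on chromosome 13 to 4.44% on chromosome 17 among the autosomes, and was 2.11% on the X chromosome.

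Several of the genes with the largest rises were dim, and their probe sets were less alike. Ccdc39, needed for the assembly of cilia, read 7.06, 5.74 and 3.81 in ElkSapKO and 3.19, 3.45 and 3.44 in SapKO (at least 1.61-fold higher, log2 2.18 ± 0.581, adjusted p = 0.047). Mouse 1 was the highest of the ElkSapKO arrays, and mouse 3 was close to SapKO. Its other probe sets, at background, differed by −0.16 and 0.00. Ccdc88a, which encodes the actin-binding protein girdin, read 7.42, 7.12 and 6.06 in ElkSapKO and 5.01, 5.05 and 5.16 in SapKO (3.47-fold higher, log2 1.80 ± 0.31, adjusted p = 0.00703), and its dimmer probe sets differed by 0.75 and 0.12. Depp1 read 9.07, 8.44 and 8.71 in ElkSapKO and 7.56, 7.46 and 8.04 in SapKO (2.07-fold higher, adjusted p = 0.0268), but its other, dimmer probe set differed by 0.02. Ehd2, which coats the necks of caveolae, was 2.42-fold higher (adjusted p = 0.0321), and Acvr2a, an activin receptor, 2.42-fold higher (adjusted p = 0.0212). Every other probe set of Ehd2 and Acvr2a was within 0.23 log2 of 0. The remaining genes of the 15 largest rises were Clec2d, Cd302, Laptm4b, Lor, Orc1, Odr4, Aif1l, Ammecr1l, Fam126b and Atp7a, at log2 0.89 to 1.19. Other probe sets of Ammecr1l, Odr4 and Orc1 differed by −0.25 to 0.00, and those of Fam126b by 0.33 to 0.57. The mean of Cd302 was below the Xist level in both groups. Over all called genes, the other probe sets of the same gene above the Xist level had the sign of the probe set used in 226 of 305 cases (74.1%) for lower genes and in 59 of 103 (57.3%) for higher genes, against 57.6% over all genes above that level.

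The immediate early genes that ternary complex factors and Srf control were lower in ElkSapKO by their median, but few passed the test. Of 24 measured genes of this class, none was called higher and 2 were called lower (2.18% of all genes were), Ier2 and Zfp36, with a median log2 difference of −0.45 (all genes 0.03) and 18 negative values. Ier2, a nuclear immediate early protein, read 10.11, 10.00 and 10.59 in ElkSapKO and 11.31, 10.92 and 11.21 in SapKO (1.88-fold lower, log2 −0.91 ± 0.242, adjusted p = 0.0467). Zfp36, which encodes the RNA-destabilising protein tristetraprolin, read 9.99, 10.29 and 10.60 in ElkSapKO and 11.20, 10.92 and 11.20 in SapKO (1.76-fold lower, log2 −0.81 ± 0.174, adjusted p = 0.0195). In both genes the ElkSapKO arrays lay below all SapKO arrays. Neither was called with the Actb or the dap covariate, where the list's median was −0.38 and −0.52, nor without ElkSapKO mouse 1 or 2 or SapKO mouse 1 or 3.

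Several classical members had non-overlapping arrays without passing. Egr1, the zinc finger factor most often read as a sign of ERK activity, was at 12.15, 12.04 and 12.42 in ElkSapKO and 12.55, 12.74 and 12.60 in SapKO (log2 −0.43 ± 0.266, adjusted p = 0.471). Egr2 was at 9.32, 9.49 and 9.87 in ElkSapKO and 10.27, 10.48 and 10.23 in SapKO (log2 −0.77, adjusted p = 0.221). Its other probe set read 9.40, 8.81 and 8.45 in ElkSapKO and 8.74, 8.94 and 9.28 in SapKO (log2 −0.10), so the groups overlapped there. Nr4a1, an orphan nuclear receptor that tracks receptor signal strength, read 11.43, 11.53 and 12.04 in ElkSapKO and 12.83, 12.50 and 12.89 in SapKO (log2 −1.07, adjusted p = 0.216). In the probe sets used, Egr1, Egr2 and Nr4a1 were lower in each ElkSapKO array than in each SapKO array. That pattern was shown by 12.5% of all genes. The AP-1 genes Junb (log2 −0.82, adjusted p = 0.0876), Fosb (−0.96, adjusted p = 0.142) and Fos (−0.52, adjusted p = 0.722) did not pass either, nor did Nab2, a corepressor of Egr proteins (−0.97, adjusted p = 0.0965), the phosphatase gene Dusp2 (−0.58, adjusted p = 0.117), Id3 (−0.58, adjusted p = 0.11), Cd69 (−0.22, adjusted p = 0.911) or Srf itself (−0.16, adjusted p = 0.771). Egr3 differed by 0.00 in the probe set that was brightest over all 24 arrays, at 6.04 to 6.27 here. The other Egr3 probe set was the brighter one in stimulated cells, at 7.87, 7.92 and 6.84 in ElkSapKO and 7.87, 8.33 and 8.14 in SapKO (log2 −0.57).

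Genes raised by 30 min of anti-CD3 in WT mice were then taken as a group, since the WT arrays do not enter the difference, though they share its estimate of the spread. Of the 60 genes called as raised in WT (0.330% of all genes), 11 (against 2.18% of all genes) were called lower in stimulated ElkSapKO than in SapKO and none was called higher. The median difference of the 60 was −0.43, with 50 negative values, and in 36 of them the ElkSapKO arrays lay below all SapKO arrays, against 12.5% of all genes, and none had the opposite order. By ElkSapKO mouse the median was −0.431, −0.354 and −0.357 against the SapKO mean. The 11 genes were Ccl4, Cd5, Dusp5, Gpr171, Ier2, Maff, Midn, Myl6, Orai1, Per1 and Zfp36. Orai1, the pore of the calcium channel that opens when calcium stores empty, read 7.24, 6.98 and 7.51 in ElkSapKO and 8.26, 8.13 and 8.26 in SapKO (1.97-fold lower, adjusted p = 0.0344). Myl6, a myosin light chain, read 7.46, 7.19 and 7.54 in ElkSapKO and 8.28, 8.15 and 8.34 in SapKO (1.82-fold lower, adjusted p = 0.0108). Per1, a clock gene with rapid induction, was 2.0-fold lower (adjusted p = 0.0438), and Dusp5, a nuclear phosphatase of ERK, read 10.99, 10.69 and 10.85 in ElkSapKO against 11.68, 11.37 and 11.72 in SapKO (1.69-fold lower, adjusted p = 0.0438). Cd5, which dampens receptor signals, was 2.08-fold lower (adjusted p = 0.0438), and the chemokine gene Ccl4 1.79-fold lower (adjusted p = 0.0244). Gpr171, Midn, Myl6, Orai1 and Per1 were chosen after their values were seen.

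**Figure D3:**
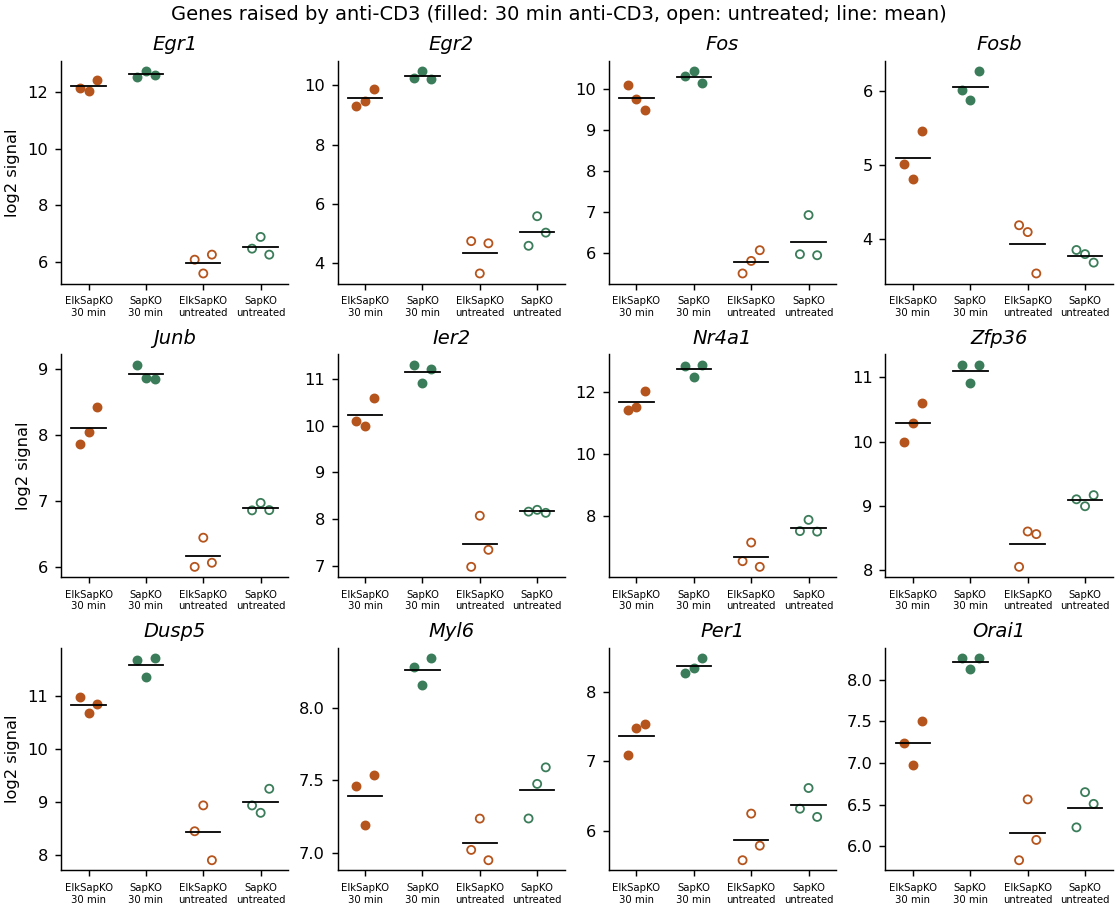
Log2 signal of 12 genes in ElkSapKO and SapKO, stimulated for 30 min (filled) and untreated (open); points are mice 1, 2 and 3 and lines are group means. The signal rises with anti-CD3 in both genotypes, least in Myl6, and the stimulated ElkSapKO points lie below the stimulated SapKO points in each panel. The 12 genes were picked from the 60 raised in WT. That order held in 36 of the 60, and the groups overlapped in Cd69, Dusp2 and Srf, which are not shown. Each panel shows the brightest probe set of the gene, and the groups overlapped in another Egr2 probe set. The vertical axes differ between genes and do not start at 0.

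Promoters of these genes are shown because the DNA box bound by Srf, the CArG box, stands close to the start of several of them. In the 250 bases before the RefSeq start (assembly GRCm38.p6), searched on both strands, a CArG box was found in 6 of the 46 WT-raised genes with a sequence (13.0%) and in 3 of the 8 called lower (37.5%), which are Dusp5, Myl6 and Zfp36, against 207 of 14452 tested genes (1.43%) and 482 of all 32851 windows (1.47%). The ETS motif CCGGAA, on either strand, was in 13 of the 46 (28.3%) and in 2 of the 8 (25%), against 2828 tested genes (19.6%) and 12% of windows. Among all genes called lower a CArG box was in 11 of 330 (3.33%), and among those called higher in 1 of 65 (1.54%). CArG boxes and ETS motifs are printed in capitals, each sequence runs 5′ to 3′ along the strand of the gene, and no ETS motif overlaps a CArG box in them. A match is a description of the sequence and not a shown binding site. The remaining WT-raised genes with a CArG box, Egr2 (log2 −0.77), Srf (−0.16) and Ncoa7 (0.01), were not called. Of these only Egr2 is printed beside the 3 called genes.
Zfp36 (chr7:28379229-28379478, minus strand): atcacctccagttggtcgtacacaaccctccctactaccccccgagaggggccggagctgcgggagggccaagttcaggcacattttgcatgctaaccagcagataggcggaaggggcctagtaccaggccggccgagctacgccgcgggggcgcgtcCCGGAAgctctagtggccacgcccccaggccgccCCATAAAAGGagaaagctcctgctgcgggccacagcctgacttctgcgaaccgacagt
Dusp5 (chr19:53528895-53529144, plus strand): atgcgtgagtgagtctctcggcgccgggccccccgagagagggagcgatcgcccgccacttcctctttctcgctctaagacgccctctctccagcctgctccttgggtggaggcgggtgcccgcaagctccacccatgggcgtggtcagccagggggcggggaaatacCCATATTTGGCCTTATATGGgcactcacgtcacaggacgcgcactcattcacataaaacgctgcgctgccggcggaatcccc
Myl6 (chr10:128493010-128493259, minus strand): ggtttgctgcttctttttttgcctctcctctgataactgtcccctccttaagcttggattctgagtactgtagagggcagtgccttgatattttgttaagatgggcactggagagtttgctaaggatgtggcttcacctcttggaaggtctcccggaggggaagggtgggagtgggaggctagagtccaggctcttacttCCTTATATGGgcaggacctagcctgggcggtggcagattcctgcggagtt
Egr2 (chr10:67537316-67537565, plus strand): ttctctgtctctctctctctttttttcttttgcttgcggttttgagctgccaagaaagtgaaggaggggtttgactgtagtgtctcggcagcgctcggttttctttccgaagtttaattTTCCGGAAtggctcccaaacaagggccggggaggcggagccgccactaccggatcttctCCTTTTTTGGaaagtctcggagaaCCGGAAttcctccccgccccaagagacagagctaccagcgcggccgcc
Zfp36 has a single CArG box, which begins at −58 from the start, and a single ETS motif upstream of it. Dusp5 has a pair of CArG boxes that touch each other, and no ETS motif in this window. Myl6 has 1 box, at −50, and no ETS motif. Egr2 has 1 box at −72, with 3 ETS motifs, at −131, −129 and −48, of which the first pair overlap each other on opposite strands.

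Targets of Srf and its myocardin-related partners in the cytoskeleton included lower genes as well. Of 22 measured, 4 were called lower (2.18% of all genes were) and none higher, with a median of −0.33 and 20 negative values. Vasp, which promotes actin filament growth, read 7.67, 8.10 and 8.22 in ElkSapKO and 9.35, 8.81 and 9.22 in SapKO (2.18-fold lower, log2 −1.13 ± 0.251, adjusted p = 0.0238). Zyx, the focal adhesion protein zyxin, was 2.07-fold lower (adjusted p = 0.0377). Wdr1, a cofactor of cofilin in actin disassembly, was 1.88-fold lower (adjusted p = 0.0219), and its other probe sets differed by −1.22 and −1.20. Tagln2 was 1.63-fold lower (adjusted p = 0.0403). None of these 4 is among the 60 genes that anti-CD3 raised in WT. The list had 0 calls with the Actb covariate (median −0.36), with the dap covariate (−0.23), within the upper dap class (−0.25), and without ElkSapKO mouse 1 or 2 or SapKO mouse 1 or 3, and 2 without SapKO mouse 2.

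Components of T cell receptor signalling included several lower genes. Of 24 measured, 8 were lower (2.18% of all genes were) and none higher, with a median of −0.40 and 22 negative values. Cd3e, a signalling chain of the receptor complex that anti-CD3 binds, read 10.10, 10.11 and 10.73 in ElkSapKO and 11.38, 11.22 and 11.58 in SapKO (2.11-fold lower, log2 −1.08 ± 0.208, adjusted p = 0.0126). Zap70, the kinase recruited to these chains, read 9.10, 9.02 and 9.59 in ElkSapKO and 10.09, 9.89 and 10.00 in SapKO (1.69-fold lower, adjusted p = 0.0183). The coreceptors used in the sort were lower too: Cd4 was 1.89-fold lower (adjusted p = 0.0219) and Cd8a 1.56-fold lower (adjusted p = 0.0194), with Cd8a at 12.18, 12.11 and 12.63 in ElkSapKO and 12.97, 12.91 and 12.97 in SapKO. The others called were the inhibitory genes Csk (log2 −0.82), Cd5 (−1.05), Cd6 (−1.12) and Sla2 (−0.65), so both activating and inhibiting components were among them. Of these, Csk, Cd6 and Sla2 were chosen after their values were seen. Other probe sets differed by −0.20 and −0.34 for Zap70, by −0.56 to −0.18 for Cd8a and by −1.78 for Cd4. The other Sla2 probe set differed by −0.03, and its groups overlapped.

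Regulators that feed back on ERK showed 5 lower (2.18% of all genes were) and no higher genes of 19, with a median of −0.37. They were the phosphatase genes Dusp5 and Dusp10 (log2 −0.72, adjusted p = 0.0382), the adaptor genes Dok1 (−0.59, adjusted p = 0.0269) and Dok2 (−0.88, adjusted p = 0.00881), and Spred2 (−0.60, adjusted p = 0.0451), whose 4 other, dimmer probe sets went the other way, by 0.10 to 0.56. The count was 0 with the Actb covariate (median −0.35), with the dap covariate (−0.37) and without ElkSapKO mouse 1 or 2 or SapKO mouse 3, and 1 without SapKO mouse 1 or 2. Among 11 kinases and activators of the Ras and ERK pathway none was called, with a median of −0.13 and unadjusted p values that were smallest for Nras, Araf, Map2k1 and Map2k2.

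Among 26 genes of positive selection and maturation, 6 were lower (2.18% of all genes were) and 1, Foxp1, was higher (0.423% of all genes were), with a median of −0.38. The lower count was 0 with the Actb covariate (median −0.53), with the dap covariate (−0.30) and without SapKO mouse 1, and 1 without SapKO mouse 3 or ElkSapKO mouse 1. It was 2 without ElkSapKO mouse 2, 3 without SapKO mouse 2 or with probe sets averaged, and 11 when untreated ElkSapKO mouse 2 was left out. Beside Ccr4 and Cd5 the lower genes were Tox (log2 −1.11, adjusted p = 0.0438), a nuclear factor needed for CD4 lineage development, Slfn1 (−1.01, adjusted p = 0.0352) and the class I histocompatibility genes H2-K1 and H2-D1. H2-K1 read 9.65, 10.22 and 10.12 in ElkSapKO and 11.04, 10.75 and 11.13 in SapKO (log2 −0.98, adjusted p = 0.0159), and H2-D1 differed by −0.96 (adjusted p = 0.0182). Probe sets of these related class I genes may cross-hybridise. The other Tox probe sets differed by −0.11 and 0.02. Foxp1, which keeps T cells quiescent, was higher by 0.66 (adjusted p = 0.0377), while its 7 other probe sets differed by −0.59 to 0.39.

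Of 20 DP thymocyte genes, Cd4, Cd8a and Tox were lower (2.18% of all genes were) and none was higher, with a median of −0.28. The lower count was 0 with the Actb covariate (median −0.09), with the dap covariate (−0.19), and without ElkSapKO mouse 1 or 2 or SapKO mouse 1 or 3. Rag1, the recombinase that marks the DP stage, was bright in all arrays, at 12.53, 12.37 and 12.27 in ElkSapKO and 12.55, 12.39 and 12.60 in SapKO (log2 −0.13, adjusted p = 0.63). Single members were called lower in the AP-1 list (Maff, of 14), the NF-kB target list (Ccl4, of 19), the p53 and apoptosis list (Bbc3, of 19), the ETS family list (Elf4, of 20) and the list of RNA decay and splicing regulators (Zfp36, of 20). The Nr4a and negative selection list of 12 had Cd5 and Bbc3, and the interferon list of 21 had Irf9 (log2 −0.71) and Usp18 (−1.01). Over all genes 2.18% were called lower, which is the share to set beside each of these counts. No member was called among 11 Egr, Nab and Id genes (median −0.43), 18 NFAT targets (−0.10), 29 cell cycle genes (0.07), 20 heat shock genes (0.06), 15 ribosomal protein genes (0.00) or 23 oxidative phosphorylation genes (−0.04). Of the 11 Egr, Nab and Id genes 8 were negative. Tcf3 had the smallest p among them and was close to the threshold (log2 −0.82, adjusted p = 0.0603 by limma). Other Tcf3 probe sets differed by −1.24 and −1.05, while Nab1 was higher by 0.60 (adjusted p = 0.0994). In these lists the count at adjusted p below 0.05 comes from limma over all genes, and no list was tested as a set. The lists were written with earlier results of these data known.

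Markers of other cells that a sorted DP sample could hold were not called, with 1 exception. No gene was called of 18 mature and innate T cell markers, 14 double-negative thymocyte markers, 14 B cell markers, 21 macrophage and dendritic cell markers, 10 granulocyte markers or 7 erythroid markers. Of the mature T cell markers 9 of 18 were negative. Klf2 differed by −1.36 (adjusted p = 0.0755 by limma), Ccr7 by −0.82 (adjusted p = 0.0708) and Gzma by 0.67 (adjusted p = 0.115). Of the B cell markers 10 of 14 were negative. Cd79a differed by −1.05 (adjusted p = 0.117), with its ElkSapKO arrays below the Xist level. In Klf2, Ccr7 and Cd79a the ElkSapKO arrays lay below all SapKO arrays, as in 12.5% of all genes. Of 21 epithelial and stromal markers only Vim, which T cells also express, was called (log2 −0.67, adjusted p = 0.0308), where 2.18% of all genes were called lower. The summed signal of the B cell markers was 11.96 to 12.54 log2 in ElkSapKO and 12.30 to 12.64 in SapKO, and that of the macrophage and dendritic cell markers 10.31 to 10.70 in ElkSapKO and 10.49 to 10.67 in SapKO. For granulocytes it was 7.42 to 8.26 in ElkSapKO and 7.47 to 7.63 in SapKO, with 9 of the 10 markers below the Xist level. For mature T cells it was 10.75 to 11.28 in ElkSapKO and 10.90 to 11.31 in SapKO. The ranges overlap in each of these marker groups. They did not overlap for the epithelial and stromal markers, at 10.21 to 10.51 in ElkSapKO and 10.64 to 10.81 in SapKO with 12 of 21 below the Xist level, nor for the erythroid markers, at 9.72 to 9.90 in ElkSapKO and 9.63 to 9.70 in SapKO with 5 of 7 below it. The part of these shifts in the results was not tested.

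In untreated cells of the same mice, the differences between the genotypes were already present. There 369 genes (2.03%) were called, 304 lower (1.67%) and 65 higher (0.357%) in ElkSapKO. The count was 0 in a fit of only these 6 arrays, with 1248 genes at an unadjusted p below 0.05, and 1 with the Actb covariate. All 473 genes called in stimulated cells had the same sign in untreated cells, against 70.1% of all genes, and their medians at rest were −0.61 for the lower and 0.38 for the higher genes. The 160 genes called in both states are 33.8% of the stimulated list and 43.4% of the untreated list. The 2 states share the mice, so the second is no independent repeat of the first. At rest Rbp7 differed by −2.09 log2 (adjusted p = 0.000222), Nmnat1 by −1.53 (adjusted p = 7.87e-05) and Cfp by −1.33 (adjusted p = 0.000622). Depp1 was more different at rest in the probe set used, by 1.64 (adjusted p = 0.00238).

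The response to anti-CD3 itself did not differ detectably between the genotypes. The test of the difference of responses called 0 of 18193 genes (0.00%) by limma, with 361 genes at an unadjusted p below 0.05 (1.98%) and a lowest adjusted p of 0.917. With array weights it called 3. The main model leaves out that untreated and stimulated arrays come from the same mice. With the mouse as a random block limma also called 0, with 773 genes at an unadjusted p below 0.05. The 60 WT-raised genes rose by a median of 1.31 log2 in ElkSapKO and 1.49 in SapKO, and 59 of the 60 were positive in each. The median difference of their responses was −0.13, with 42 negative values, and their median difference at rest was −0.27. Egr1 rose by 6.22 in ElkSapKO and 6.09 in SapKO, Egr2 by 5.20 in ElkSapKO and 5.25 in SapKO, and Nr4a1 by 4.98 in ElkSapKO and 5.11 in SapKO. The differences of these responses were smaller than their standard errors of 0.376 for Egr1, 0.455 for Egr2 and 0.631 for Nr4a1. Those errors are from the main model, without the pairing by mouse.

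Single genes had a larger gap in response that did not survive the adjustment. Ccr4 rose by 0.76 in ElkSapKO and by 2.21 in SapKO (difference −1.46 ± 0.403, unadjusted p = 0.00161, adjusted p = 0.917), and its untreated arrays differed by −0.27. Fosb rose by 1.15 in ElkSapKO and 2.28 in SapKO (difference −1.12 ± 0.49, adjusted p = 0.917). Myl6 rose by 0.33 in ElkSapKO and 0.82 in SapKO (difference −0.50 ± 0.227, adjusted p = 0.917).

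Loss of Elk-1 with Sap-1 present was measured in other mice, as stimulated ElkKO minus WT, with no array shared with the comparison above. It called 40 genes (0.220%), 32 lower (0.176%) and 8 higher (0.0440%) in ElkKO. Of the 473 genes, 455 had the same sign there (96.2%), against 65.8% of all genes, with medians of −0.44 for the lower and 0.32 for the higher genes. The 25 genes called in both with the same sign are 5.29% of the 473 and 62.5% of the 40. Ap2b1 was lower in both, with log2 −2.01 without Sap-1 and −2.32 with it (adjusted p = 0.00582). Setd5, a chromatin gene with a SET domain, had log2 −1.33 in both (adjusted p = 0.0104 without Sap-1 and 0.0215 with it), at 6.59, 6.78 and 7.12 in ElkSapKO and 8.21, 8.16 and 8.10 in SapKO. Of its other probe sets the brighter differed by 0.00 and the dimmer by −1.37 without Sap-1. Man1b1, a mannosidase of glycoprotein quality control, had log2 −1.29 without Sap-1 and −1.53 with it. Apex1, a DNA repair endonuclease, was higher by 0.72 without Sap-1 and 0.93 with it (adjusted p = 0.0352 and 0.0224), but its 2 other probe sets, about as bright, differed by 0.09 and 0.22 without Sap-1. Actb 3′ minus 5′ was also higher in stimulated ElkKO, at 0.381 to 0.603, than in WT, at 0.151 to 0.359, and dap was at the upper level in all ElkKO arrays but in only 1 stimulated WT array.

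**Figure D4:**
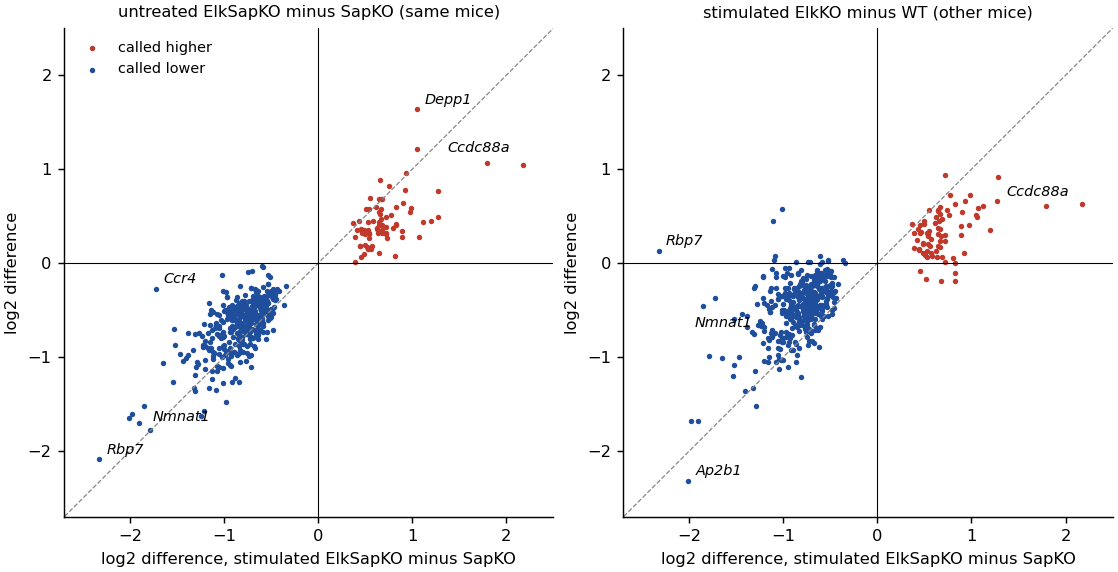
The 473 genes called in stimulated ElkSapKO minus SapKO (horizontal, log2) against their log2 difference in untreated ElkSapKO minus SapKO (left) and in stimulated ElkKO minus WT (right). Blue points were called lower and red points higher; the dashed line marks equal differences. In the left panel all 473 points share the sign of the stimulated difference, and in the right panel 455 do, with Rbp7 near 0.

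The test of whether the effect of Elk-1 loss depends on Sap-1 called 3 of 18193 genes (0.0165%). In all 3 the log2 difference on Elk-1 loss was more negative where Sap-1 was missing. Within the upper dap class limma called 0, with 130 at an unadjusted p below 0.05. Rbp7 differed by −2.46 ± 0.345 between the comparisons (adjusted p = 0.00836), with −2.33 without Sap-1 and 0.13 with it. As Rbp7 was near the Xist level in stimulated WT, a fall of that size could not be seen with Sap-1. For Rbp7 the test therefore cannot decide whether the effect of Elk-1 loss depends on Sap-1. Nmnat1 differed by −1.40 ± 0.228 (adjusted p = 0.0245), with −1.85 without Sap-1 and −0.45 with it. Gcsh, a protein of the mitochondrial glycine cleavage system, differed by −2.85 ± 0.438 (adjusted p = 0.0161). It read 8.44, 8.94 and 7.31 in ElkSapKO and 9.05, 9.01 and 9.0 in SapKO, and 8.95, 8.91 and 8.69 in ElkKO against 6.45, 6.93 and 6.99 in WT. For Gcsh the WT arrays were the low group, and only ElkSapKO mouse 3 came near them.

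The number of calls depended on single arrays and on the quality measures. Without 1 of the 6 stimulated arrays at a time, it was 23 without ElkSapKO mouse 1, 41 without ElkSapKO mouse 2, 1377 without ElkSapKO mouse 3, 20 without SapKO mouse 1, 210 without SapKO mouse 2 and 62 without SapKO mouse 3. Without both arrays of ElkSapKO mouse 2 it was 505, of which 331 are among the 473, and without its untreated array alone it was 1304. With the Actb 3′ minus 5′ value as a covariate only Nmnat1 was called (log2 −1.98, adjusted p = 0.00905), and 471 of the 473 genes kept their sign, with medians of −0.65 for the lower and 0.57 for the higher genes. With the dap class as a covariate 28 genes were called, 25 of them among the 473, and all 473 kept their sign. Among the 28 were Nmnat1 (−1.69, adjusted p = 3.56e-05), Rbp7 (−1.98, adjusted p = 0.000176), Glipr2 (−1.38), Rara (−1.30), Rab5c (−2.14), Ap2b1 (−2.0) and Cfp (−1.09). Within the upper dap class, which leaves SapKO mouse 2 as the only SapKO array, limma called 0 genes, 603 had an unadjusted p below 0.05, and all 473 had the same sign, with medians of −0.72 and 0.56. The single SapKO array is assumed there to vary like the other groups. With either covariate, none of the receptor signalling genes or of the 60 WT-raised genes was called, while the median of the receptor signalling genes was −0.30 with Actb and −0.39 with dap, against −0.40. The receptor signalling count was 0 without ElkSapKO mouse 1 or 2 or SapKO mouse 1 or 3, 11 without ElkSapKO mouse 3 and 4 without SapKO mouse 2. Without both arrays of ElkSapKO mouse 2, the counts of lower genes were 6 for receptor signalling and 8 for the WT-raised genes. The count among the WT-raised genes was 0 when stimulated mouse 1 or 2 of ElkSapKO, or mouse 1 or 3 of SapKO, was left out alone, and 4 without SapKO mouse 2.

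**Figure D5:**
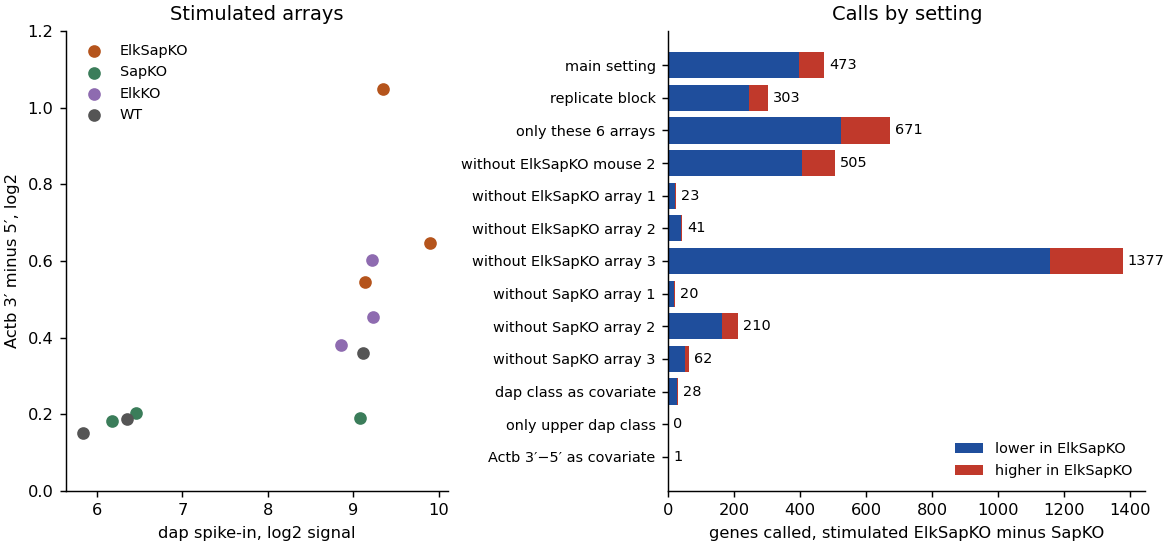
Left, the Actb 3′ minus 5′ signal (log2, vertical) against the dap spike-in (log2 signal, horizontal) of the 12 stimulated arrays by genotype. Right, genes called in stimulated ElkSapKO minus SapKO under 13 settings, lower in blue and higher in red with the total beside each bar. The ElkSapKO arrays lie above all SapKO arrays on the left, and the bars run from 0 to 1377 genes.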

How the data were processed

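RNA of sorted DP thymocytes from 12 mice, untreated and stimulated, was hybridised to 24 arrays, 3 for each of 8 groups. The deposited values are log2 signals made by the authors with RMA from the affy package, per the submitters' processing notes. Tool versions were not given in the sources used here. RMA evens out the arrays' distributions, so a change common to most genes would not be seen. Of 45101 probe sets, 34945 had 1 gene symbol in the platform annotation, 932 several and 9160 none, and 64 were controls. Each of the 18193 genes was represented by its brightest probe set, and 18032 matched RefSeq by Entrez identifier. No values were missing. The highest correlation between any 2 arrays was 0.99621, so none was a copy.

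One limma model (3.58.1, R 4.3.3) with 8 group means and 16 residual degrees of freedom gave every difference, with Benjamini-Hochberg adjusted p-values over all genes. A gene was called at an adjusted p below 0.05. The number of arrays limits the precision. Separate mice are stated in the labels. Replicate numbers name different mice in ElkSapKO and SapKO. An untreated and a stimulated array with the same number come from the same mouse, and their deviations from the group means correlated at −0.0048 to 0.8232. A fit with the mouse as a random block (consensus correlation 0.2183) was an alternative. The dap class splits the arrays into 8 lower and 16 upper by the spike-in and is no label of the study.

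Genes named are the 16 fixed factors and early genes, the 15 largest differences each way among called genes, the 5 largest of each other comparison, the 4 smallest p in each of 28 lists, and others where said. Of the 5 largest of other comparisons only those bearing on the members are printed. Of the 4 smallest p in each list only a part is printed. Those left out include genes close to the threshold, such as Stat2 (log2 −0.98, adjusted p = 0.059 by limma) and Rrm2 (0.61, adjusted p = 0.059). Members, lists and tests were chosen with earlier results of these data known. Other alternatives were array weights, averaged or all probe sets, leaving out low genes, median centring, a robust trended prior, only the groups compared, quality covariates and leaving out arrays. Tables and plots used Python 3.11.15 with matplotlib 3.10.9.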

Additional observations from a re-analysis of the deposited data

Results flagged for a closer look

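The test in limma of whether the effect of losing Elk-1 differs with the presence of Sap-1 called 3 genes. For Rbp7 the difference between the effects was −2.46 log2 (adjusted p = 0.00836). It ranged from −2.71 to −2.16 under 26 alternatives and passed in 22 of them. Rbp7 was near the Xist level in stimulated WT and ElkKO, so a fall like that without Sap-1 could not be seen there. For Rbp7 the test thus cannot decide whether the effect depends on Sap-1. For Nmnat1 the difference between the effects was −1.40 (adjusted p = 0.0245), with a range of −1.53 to −1.13, and it passed in 11 of the 26. For Gcsh it was −2.85 (adjusted p = 0.0161), with a range of −3.46 to −2.39, and it passed in 20 of the 26. For Gcsh, stimulated ElkSapKO minus SapKO was −0.79 (adjusted p = 0.186) and stimulated ElkKO minus WT was 2.06 (adjusted p = 0.00582), from the 1 probe set of the gene. Rbp7 and Nmnat1 lie side by side on chromosome 4. No explanation of these differences was tested.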

How the results depend on the processing

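With stimulated ElkSapKO against SapKO, 473 genes were called, against 1 with the Actb 3′ minus 5′ covariate, 28 with the dap class covariate, 0 within the upper dap class, 1528 over all probe sets and 4548 with array weights. Leaving out 1 array gave 20 to 1377. In untreated cells 369 became 1 with the Actb covariate, 24 with dap, 1 within the upper dap class, 0 with only these arrays, 626 with probe sets averaged, 1784 over all probe sets and 6112 with array weights, and 15 to 4675 without 1 array. The difference of responses called 3 with array weights and 0 to 0 without 1 array. Stimulated ElkKO against WT called 40, against 7 with the Actb covariate, 11 with dap, 0 within the upper dap class, 21 with probe sets averaged, 931 with array weights, 231 without both arrays of ElkSapKO mouse 2 (an alternative chosen after seeing the data, which acts here through the shared spread) and 3 to 264 without 1 array. The dependence on Sap-1 called 67 with array weights, 0 within the upper dap class, 5 without ElkSapKO mouse 2 and 0 to 3 without 1 array. Of the WT-raised genes 11 were lower, against 7 of the 34 raised in both WT and ElkKO, 0 with either covariate, 0 within the upper dap class, 29 with array weights and 0 to 16 without 1 array. Among called single genes the sign turned in Tox with the Actb covariate (log2 0.02) and in Spred2 with probe sets averaged (0.11). Over all single genes and alternatives, 2730 values kept their side of the threshold, 561 lost and 198 gained a call. The cause of these changes was not tested. The number of arrays and dim signal near the Xist level limit these results.

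The replicate numbers do not pair the mice of the 2 genotypes, whose same-numbered stimulated arrays deviated with correlations of −0.2300, 0.1663 and −0.0271. With the replicate block, 303 genes were called in stimulated cells, 57 higher and 246 lower in ElkSapKO, 0 in untreated cells and 11 in stimulated ElkKO against WT.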
